A study of Homo sapiens with 12 samples.

Results

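The 9 transcripts described here encode enzymes that set the supply of deoxynucleotides, the building blocks of DNA. They are the ribonucleotide reductase subunits RRM1, RRM2 and RRM2B, the thymidylate and dUTP enzymes TYMS, DTYMK and DUT, the salvage kinases TK1 and DCK, and the triphosphohydrolase SAMHD1. They were chosen by gene symbol, with earlier results of these data known. All 9 were found among the 17099 symbols listed for OCI-AML2 and the 16820 listed for MOLM-13. Both are established human acute myeloid leukaemia cell lines, and each stands for 1 line only. OCI-AML2 cells were given selinexor at 200 nM and MOLM-13 cells at 75 nM, and for each line cells given the vehicle, DMSO, served as the reference. All cells were harvested after 36 h. Selinexor is a small molecule that binds the nuclear export receptor XPO1 and blocks the export of its cargo proteins. Polyadenylated RNA from whole cells was sequenced in 12 libraries, 3 in each of the 4 groups, which the submitters describe as biologically independent.

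Ribonucleotide reductase removes the 2′ hydroxyl of ribonucleoside diphosphates and is the rate-limiting step of de novo deoxynucleotide synthesis. Its large subunit RRM1 pairs in S phase with the small subunit RRM2, which is made and degraded with the cell cycle, or with RRM2B, a p53-induced small subunit that serves quiescent and damaged cells. Thymidylate is made from dUMP by TYMS and from imported thymidine by TK1, while DUT keeps uracil out of DNA by splitting dUTP. SAMHD1 works the other way and hydrolyses deoxynucleoside triphosphates. It is abundant in myeloid cells, and in acute myeloid leukaemia it is known for inactivating cytarabine triphosphate, the product of a drug that DCK activates.

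Total counts ranged from 8114892 to 9774423 in the 6 selinexor libraries and from 8160133 to 11769061 in the 6 DMSO libraries. Spearman correlations across genes between libraries of a group lay between 0.986 and 0.990, and 0 pairs were identical. OCI-AML2 DMSO library 2 stood somewhat apart, with a chi-square per degree of freedom of 4.04 and 5.56 against its group's other libraries, where other pairs of the series lay between 1.61 and 2.37. The levels below are CPM, counts scaled to the library size and by trimmed means. Each change is a log2 fold change of selinexor over DMSO with its standard error, from edgeR's quasi-likelihood test on 3 against 3 libraries, with p-values adjusted over all tested genes by the Benjamini-Hochberg method and a threshold of 0.05. Of the 8 myeloid markers, 7 were tested in each line, and CD68 had 3 to 10 counts in every library. Among markers of T, B and NK cells only NKG7 passed the filter on low counts, at 10.7 to 17.6 CPM, and CD3E, CD3D, CD2, MS4A1 and CD79A did not. None of the 4 erythroid and 4 epithelial or stromal markers passed it, and their summed levels were at most 0.490 and 2.46 CPM.

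All 9 transcripts passed the filter in both lines, and 2 of them, RRM2B and SAMHD1, rose after selinexor while the other 7 fell. The same 2 rose in OCI-AML2 and in MOLM-13. In OCI-AML2, 63.1% of the 12086 tested genes were called, 31.3% as higher and 31.8% as lower, and in MOLM-13 63.6% of 11807, with 31.8% called in each direction. Being called is therefore common in these data, and the sizes carry more information than the count. The median log2 fold change over the 9 was -0.62 in OCI-AML2 and -1.30 in MOLM-13, where the medians over all tested genes were -0.0016 and 0.0091. For each of the 9, the 3 selinexor libraries did not overlap the 3 DMSO libraries in either line. Of all tested genes, selinexor libraries lay wholly above DMSO in 33.0% and wholly below in 33.3% in OCI-AML2, and in 32.7% and 32.8% in MOLM-13. In bulk RNA, fewer cells that express a transcript and less of it per cell cannot be told apart.

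**Figure D1:**
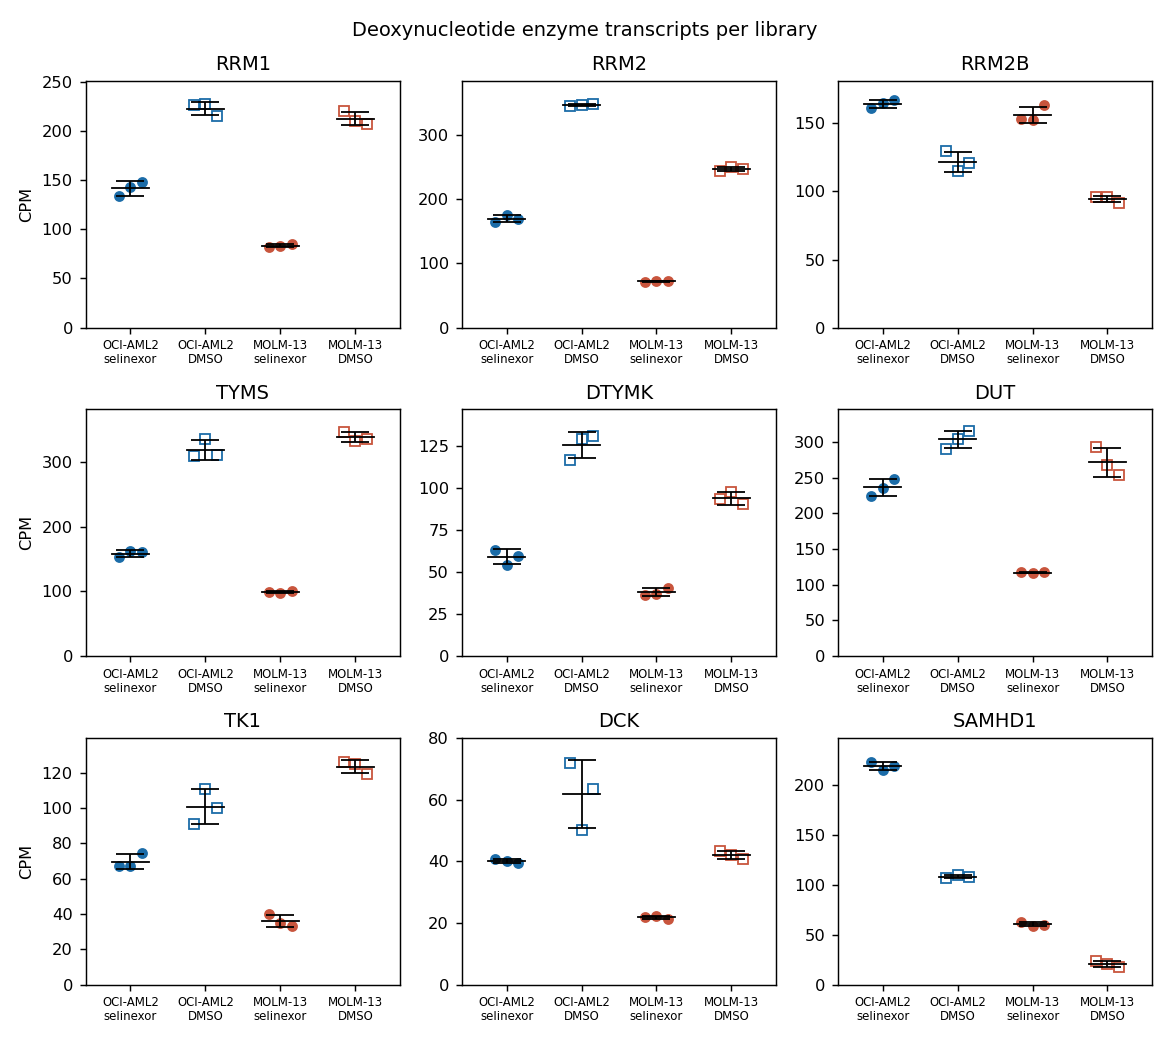
CPM of each of the 9 transcripts (vertical axes, from 0) in the 12 libraries, with selinexor as filled circles and DMSO as open squares, OCI-AML2 in blue and MOLM-13 in red. Horizontal black lines are group means and bars are SDs of 3 libraries. RRM2B and SAMHD1 lie higher with selinexor in both lines, the other 7 lie lower, and no pair of groups within a line overlaps.

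The stretches upstream of 6 of these genes are shown because TYMS and RRM2 moved nearly alike while SAMHD1 moved in the opposite direction, so that a reader can set their proximal promoters side by side. Each is the 250 bases before an annotated RefSeq start (GRCh38.p14), written 5′ to 3′ on the gene's strand. Capitals mark the words searched on both strands: E2F words (TTTCCCGC, TTTGGCGC, TTTCGCGC, TTTGCCGC), the CCAAT box, and words of the cell cycle homology region, which were TTTGAA as one and TTCGAA as the other. No match overlapped another.
RRM2 (chr2:10122489-10122738, plus strand): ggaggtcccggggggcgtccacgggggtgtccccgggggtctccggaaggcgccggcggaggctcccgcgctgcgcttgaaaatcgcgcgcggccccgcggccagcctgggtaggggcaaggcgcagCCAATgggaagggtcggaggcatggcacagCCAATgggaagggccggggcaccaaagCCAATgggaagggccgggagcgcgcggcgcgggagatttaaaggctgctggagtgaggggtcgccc
DTYMK (chr2:241686816-241687065, minus strand): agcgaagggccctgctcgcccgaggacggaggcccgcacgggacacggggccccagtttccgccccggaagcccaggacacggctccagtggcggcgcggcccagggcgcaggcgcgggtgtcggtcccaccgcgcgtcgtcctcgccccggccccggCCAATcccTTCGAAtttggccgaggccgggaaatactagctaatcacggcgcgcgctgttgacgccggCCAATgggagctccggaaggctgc
TYMS (chr18:657403-657652, plus strand): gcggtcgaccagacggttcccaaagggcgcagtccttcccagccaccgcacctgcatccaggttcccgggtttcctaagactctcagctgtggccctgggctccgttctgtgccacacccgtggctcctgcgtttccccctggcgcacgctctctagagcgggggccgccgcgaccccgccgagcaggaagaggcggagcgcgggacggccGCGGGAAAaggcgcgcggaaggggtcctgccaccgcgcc
DUT (chr15:48331947-48332196, plus strand): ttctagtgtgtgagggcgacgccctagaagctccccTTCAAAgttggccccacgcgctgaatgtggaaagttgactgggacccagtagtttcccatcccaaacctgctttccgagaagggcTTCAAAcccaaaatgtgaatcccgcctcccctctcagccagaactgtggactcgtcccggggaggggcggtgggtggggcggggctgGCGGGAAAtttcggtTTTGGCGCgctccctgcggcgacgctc
TK1 (chr17:78187053-78187302, minus strand): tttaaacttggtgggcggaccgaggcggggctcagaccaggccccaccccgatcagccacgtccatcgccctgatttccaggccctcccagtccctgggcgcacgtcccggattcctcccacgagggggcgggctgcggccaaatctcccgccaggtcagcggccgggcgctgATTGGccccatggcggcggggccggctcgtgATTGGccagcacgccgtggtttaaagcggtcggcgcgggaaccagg
SAMHD1 (chr20:36951709-36951958, minus strand): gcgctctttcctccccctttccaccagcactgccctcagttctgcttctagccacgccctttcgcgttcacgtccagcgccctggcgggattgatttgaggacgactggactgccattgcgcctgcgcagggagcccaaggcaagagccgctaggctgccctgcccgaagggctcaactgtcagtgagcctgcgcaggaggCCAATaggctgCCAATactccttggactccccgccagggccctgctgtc
RRM2 has 3 CCAAT words, at -123, -93 and -66 from this start, inside a repeated stretch. TK1 has 2 on the opposite strand, at -77 and -46, and DTYMK has 2, at -92 and -24, with TTCGAA at -84 between them. TYMS has 1 E2F word on the opposite strand, at -39. DUT has 2 E2F words, at -42 on the opposite strand and at -27 on the gene's own strand. It also holds TTTGAA on the opposite strand, at -214 and -129. The DUT stretch is its start 4, and its starts 1, 2 and 3 held none of the words. The TK1 stretch is its start 2, and its start 1 held none. RRM2 is shown at start 1, and its start 2 held 1 CCAAT word, at -249. Of the genes not shown, DCK held no word, and RRM1 held CCAAT at -28 and TTTGAA on the opposite strand at -199. SAMHD1, which rose, also has 2 CCAAT words, at -49 and -38. RefSeq gives 13 starts for 8 of the 9 genes, and of these 6 hold CCAAT, 3 hold a word of the cell cycle homology region and 2 hold an E2F word. Over all 35116 annotated starts the shares were 32.0% for CCAAT, 14.3% for the homology region words and 2.79% for the E2F words. Over the 26 starts of 23 replication fork and origin genes they were 57.7%, 3.85% and 38.5%. These are matches of letters and do not show that a factor binds there.

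The catalytic pair of ribonucleotide reductase fell in both lines, and the small subunit fell further than the large one. RRM2 (chromosome 2, 10120698 to 10131419, plus strand, GRCh38) had 164, 174 and 169 CPM in the OCI-AML2 selinexor libraries, against 344, 345 and 348 CPM with DMSO. In MOLM-13 it had 70.6, 72.9 and 71.9 CPM with selinexor and 243, 249 and 246 CPM with DMSO. The selinexor libraries were thus all low and close to each other in both lines, and MOLM-13 reached the lower level. RRM2 changed by -1.03 ± 0.041 in OCI-AML2 (adjusted p = 1.1e-24) and by -1.78 ± 0.048 in MOLM-13 (adjusted p = 5.7e-57), which left 49.0% and 29.2% of the DMSO level. In OCI-AML2 2.61% of all tested genes fell more than RRM2, and in MOLM-13 0.661%.

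RRM1 (chromosome 11, 4094707 to 4138876, plus strand), which carries the active and allosteric sites, had 134, 143 and 148 CPM with selinexor and 226, 227 and 215 CPM with DMSO in OCI-AML2. In MOLM-13 the selinexor libraries had 81.5, 83.3 and 85.1 CPM and the DMSO libraries 220.1, 211 and 207 CPM. The DMSO levels of the lines were close, and the selinexor levels were not. RRM1 changed by -0.65 ± 0.046 (adjusted p = 2.7e-16) in OCI-AML2 and by -1.35 ± 0.048 (adjusted p = 1.9e-46) in MOLM-13. The ratio of RRM2 to RRM1 counts within a library, which does not depend on scaling between libraries, was 1.23, 1.22 and 1.14 with selinexor and 1.52, 1.52 and 1.61 with DMSO in OCI-AML2. In MOLM-13 it was 0.866, 0.875 and 0.844 with selinexor and 1.10, 1.18 and 1.19 with DMSO. The ratio was lower with selinexor by a factor of 0.771 in OCI-AML2 and 0.744 in MOLM-13. In each line the groups did not overlap, and the exact permutation test gave p = 0.10 two-sided, the smallest that 3 against 3 libraries allow.

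RRM2B (chromosome 8, 102204502 to 102239118, minus strand), the alternative small subunit, rose in both lines. It had 161, 164 and 167 CPM in OCI-AML2 with selinexor against 129.5, 115 and 121 CPM with DMSO, and 153, 152 and 163 CPM in MOLM-13 with selinexor against 95.9, 95.5 and 91.7 CPM with DMSO. The selinexor levels of the lines were alike, and the DMSO level was the lower one in MOLM-13. The changes were 0.43 ± 0.050 (adjusted p = 3.5e-10) and 0.73 ± 0.050 (adjusted p = 8.9e-25). These are moderate sizes here, since 22.0% of tested genes in OCI-AML2 and 12.4% in MOLM-13 rose more.

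With RRM2 falling and RRM2B rising, the balance of the small-subunit transcripts shifted. Counts of RRM2B per count of RRM2 were 0.982, 0.943 and 0.985 with selinexor and 0.377, 0.333 and 0.348 with DMSO in OCI-AML2, a 2.75-fold difference. In MOLM-13 they were 2.17, 2.09 and 2.27 with selinexor and 0.394, 0.383 and 0.373 with DMSO, a 5.67-fold difference. Per base of the principal transcript, RRM2B made up 40.6, 39.6 and 40.7% of small-subunit transcripts with selinexor and 20.8, 18.8 and 19.5% with DMSO in OCI-AML2. In MOLM-13 its share was 60.1, 59.3 and 61.2% with selinexor and 21.5, 21.0 and 20.6% with DMSO. RRM2B was thus the minor small-subunit transcript in all 6 DMSO libraries and in the OCI-AML2 selinexor libraries, and the major one in the MOLM-13 selinexor libraries. With the length of all annotated exons instead, the OCI-AML2 selinexor share came to 48.5, 47.5 and 48.6%, and the order within each line was the same. Over the 10 ratio comparisons made (5 ratios in 2 lines), 8 had groups that did not overlap, each with an exact permutation p = 0.10 and an adjusted p of 0.125, so that none could pass the threshold.

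**Figure D2:**
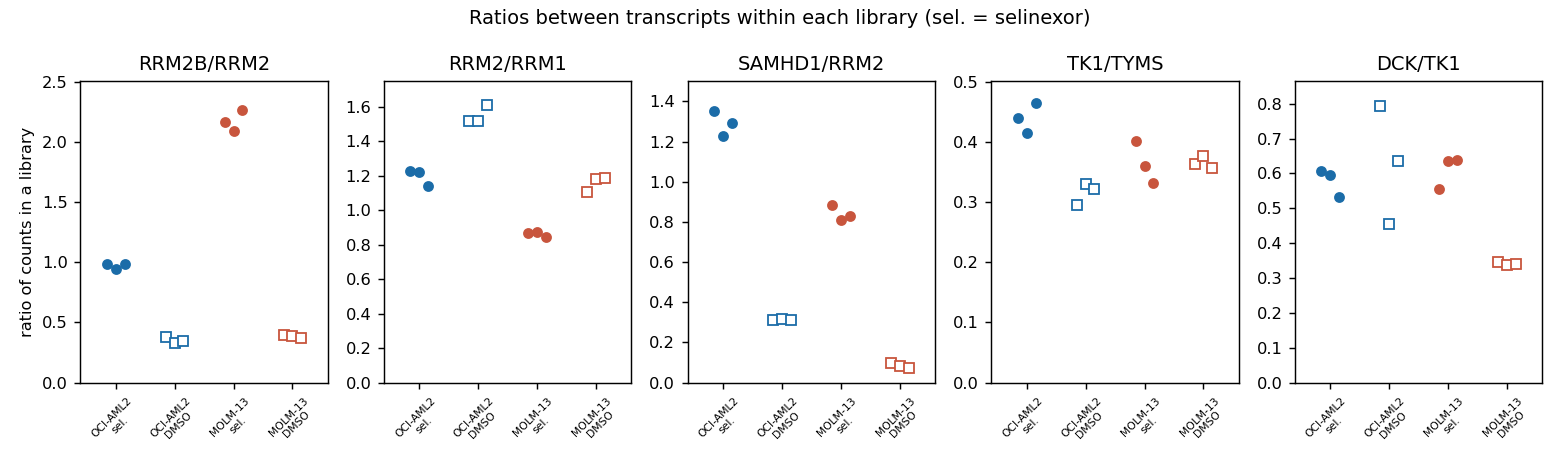
Ratio of counts of 1 transcript to another within each library (vertical axes, from 0), selinexor as filled circles and DMSO as open squares, for 5 ratios in OCI-AML2 (blue) and MOLM-13 (red). RRM2B/RRM2 in MOLM-13 lies between 2.09 and 2.27 with selinexor and between 0.373 and 0.394 with DMSO, while TK1/TYMS in MOLM-13 and DCK/TK1 in OCI-AML2 overlap between the groups.

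All 3 thymidylate and dUTP transcripts fell in both lines. TYMS (chromosome 18, 657604 to 673578, plus strand), which methylates dUMP to dTMP, had 153, 162 and 161 CPM with selinexor and 309, 336 and 311 CPM with DMSO in OCI-AML2. TYMS in MOLM-13 had 98.7, 97.5 and 100.5 CPM with selinexor and 347, 332 and 335 CPM with DMSO. The MOLM-13 selinexor libraries were the lowest of the 12. TYMS changed by -1.01 ± 0.044 (adjusted p = 1.7e-23) in OCI-AML2 and -1.77 ± 0.043 (adjusted p = 5.7e-61) in MOLM-13, close to the values of RRM2.

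The TYMS locus needs care, because these libraries do not keep the strand. TYMS shares 967 exonic bases with ENOSF1 and 183 with TYMSOS, both on the opposite strand. ENOSF1 (chromosome 18, 670324 to 712676, minus strand), a mitochondrial enolase relative, had 114 ± 1.86 CPM with selinexor and 226 ± 13.7 CPM with DMSO in OCI-AML2, and in MOLM-13 90.2 ± 2.80 CPM against 239 ± 4.88 CPM (SD, n = 3 each). It changed by -0.98 ± 0.048 and -1.41 ± 0.046. The long noncoding RNA TYMSOS (chromosome 18, 641320 to 658340, minus strand) had 38.5 ± 0.808 CPM with selinexor and 80.1 ± 8.61 CPM with DMSO in OCI-AML2, and in MOLM-13 26.4 ± 2.11 CPM against 84.6 ± 6.83 CPM, changes of -1.06 ± 0.073 and -1.68 ± 0.076. All 3 fell together, and reads from the shared bases cannot be assigned to one of them.

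DTYMK (chromosome 2, 241675742 to 241686991, minus strand) phosphorylates dTMP, whether made by TYMS or by TK1. It had 63.2, 54.4 and 59.8 CPM in the OCI-AML2 selinexor libraries against 117, 129 and 131 CPM with DMSO, and 36.6, 37.1 and 40.7 CPM in MOLM-13 with selinexor against 93.7, 97.6 and 90.3 CPM with DMSO. In OCI-AML2 it was the member with the largest fall, -1.09 ± 0.062 (adjusted p = 2.5e-19), and in MOLM-13 it changed by -1.30 ± 0.068 (adjusted p = 1.7e-33). DUT (chromosome 15, 48331011 to 48343373, plus strand), the dUTP pyrophosphatase, had 225, 236 and 249 CPM with selinexor and 291, 304 and 316 CPM with DMSO in OCI-AML2. In MOLM-13 the DUT values were 117, 116 and 118 CPM with selinexor and 294, 268 and 254 CPM with DMSO. DUT showed the mildest fall of the members in OCI-AML2, -0.36 ± 0.043 (adjusted p = 1.1e-09), where 21.8% of tested genes fell more. In MOLM-13 it fell to 43.2% of the DMSO level, a change of -1.21 ± 0.045 (adjusted p = 3.7e-44).

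The salvage kinases fell too. TK1 (chromosome 17, 78174075 to 78187233, minus strand), the cytosolic thymidine kinase of S phase, had 67.2, 67.1 and 74.6 CPM with selinexor and 90.9, 111 and 100.04 CPM with DMSO in OCI-AML2. MOLM-13 libraries had 39.7, 35.0 and 33.2 CPM with selinexor and 126, 125 and 119 CPM with DMSO. MOLM-13 thus had the higher level of the lines with DMSO and the lower one with selinexor. The changes were -0.53 ± 0.066 (adjusted p = 6.8e-09) in OCI-AML2 and -1.78 ± 0.065 (adjusted p = 1.2e-45) in MOLM-13. Counts of TK1 per count of TYMS were 0.440, 0.414 and 0.464 with selinexor and 0.294, 0.330 and 0.322 with DMSO in OCI-AML2, a 1.39-fold difference. In MOLM-13 they were 0.402, 0.359 and 0.331 with selinexor and 0.363, 0.376 and 0.356 with DMSO, and the groups overlapped (exact permutation p = 0.90).

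DCK (chromosome 4, 70992538 to 71030914, plus strand) phosphorylates deoxycytidine and the nucleoside drugs cytarabine, decitabine and fludarabine. Relative to their mean, its DMSO libraries in OCI-AML2 were more spread than those of any other member, at 72.1, 50.3 and 63.6 CPM, and the selinexor libraries had 40.8, 40.0 and 39.6 CPM. In MOLM-13 DCK had 22.0, 22.3 and 21.2 CPM with selinexor and 43.4, 42.2 and 40.7 CPM with DMSO. The lowest OCI-AML2 DMSO value belonged to library 2, the one that stood apart, and it still lay above all selinexor values. DCK changed by -0.62 ± 0.12 (adjusted p = 6.7e-04) in OCI-AML2 and -0.94 ± 0.090 (adjusted p = 1.1e-16) in MOLM-13. The ratio of DCK to TK1 counts was 0.607, 0.596 and 0.532 with selinexor and 0.794, 0.454 and 0.635 with DMSO in OCI-AML2, where the groups overlapped (exact permutation p = 0.80). In MOLM-13 the ratio was 0.555, 0.637 and 0.639 with selinexor and 0.345, 0.338 and 0.342 with DMSO, 1.78-fold higher with selinexor. DCK shares 199 exonic bases with MOB1B on the same strand, a gene that changed by 0.13 (adjusted p = 0.19) in OCI-AML2 and 0.071 (adjusted p = 0.57) in MOLM-13.

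SAMHD1 (chromosome 20, 36889773 to 36951901, minus strand), the member that breaks deoxynucleotides down, rose the most. It had 222, 214 and 219 CPM with selinexor and 107, 109.8 and 108 CPM with DMSO in OCI-AML2. In MOLM-13 it had 62.4, 58.9 and 59.7 CPM with selinexor and 23.7, 20.6 and 17.9 CPM with DMSO. MOLM-13 held less of it throughout, and its selinexor libraries stayed below the OCI-AML2 DMSO libraries on CPM scaled within each line. The changes were 1.01 ± 0.046 (adjusted p = 6.8e-23) in OCI-AML2 and 1.55 ± 0.087 (adjusted p = 4.4e-31) in MOLM-13, that is 2.02-fold and 2.92-fold. Of all tested genes, 7.02% and 2.70% rose more. Counts of SAMHD1 per count of RRM2 were 1.35, 1.23 and 1.29 with selinexor and 0.310, 0.318 and 0.310 with DMSO in OCI-AML2. In MOLM-13 they were 0.884, 0.808 and 0.831 with selinexor and 0.0975, 0.0825 and 0.0728 with DMSO. The balance of these transcripts therefore differed 4.12-fold and 10.1-fold between selinexor and DMSO. SAMHD1 shares 1159 exonic bases with TLDC2 on the opposite strand, which also rose, by 0.74 (adjusted p = 6.3e-07) and 1.71 (adjusted p = 9.9e-09), with a mean of 177 and 36.5 counts per library in OCI-AML2 and MOLM-13. The reads of that stretch cannot be split between them.

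SAMHD1 is tied by background knowledge to myeloid cells and to the interferon response, and genes of both groups were read out. Myeloid markers rose in 5 of 7 tested in OCI-AML2 and in 7 of 7 in MOLM-13, with MPO alone falling in OCI-AML2 (median log2 fold change 0.60 and 0.97). LYZ, the lysozyme of granulocytes and monocytes, had 9411, 9667 and 9662 CPM with selinexor and 1803, 1613 and 1789 CPM with DMSO in OCI-AML2, and in MOLM-13 971, 922 and 981 CPM against 113, 117 and 118 CPM. CEBPA, a myeloid transcription factor, changed by 0.60 ± 0.038 and 0.97 ± 0.031, and MPO, the myeloperoxidase of granules, by -0.53 ± 0.15 and 1.13 ± 0.076. Of 12 type I interferon response genes, 6 of 7 tested rose in OCI-AML2 and 4 of 8 in MOLM-13, and 0 fell. Their median log2 fold change was 0.77 in OCI-AML2 and 0.27 in MOLM-13, lower in the line where SAMHD1 rose more. Over all tested genes, 31.3% in OCI-AML2 and 31.8% in MOLM-13 were called higher. STAT2, a signal carrier of the interferon receptor, changed by 1.28 ± 0.078 and 1.32 ± 0.075. IFIT1, IRF9 and IFI44L were not tested in either line. Summed over the 8 myeloid markers, CPM of the total count was 10926 to 11225 with selinexor in OCI-AML2, against 2818 to 3003 with DMSO. In MOLM-13 the sum was 2934 to 2974 against 1293 to 1331. LYZ made up most of the sum in OCI-AML2, where CD33 was not called. What part these groups have in the SAMHD1 result was not tested.

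**Figure D3:**
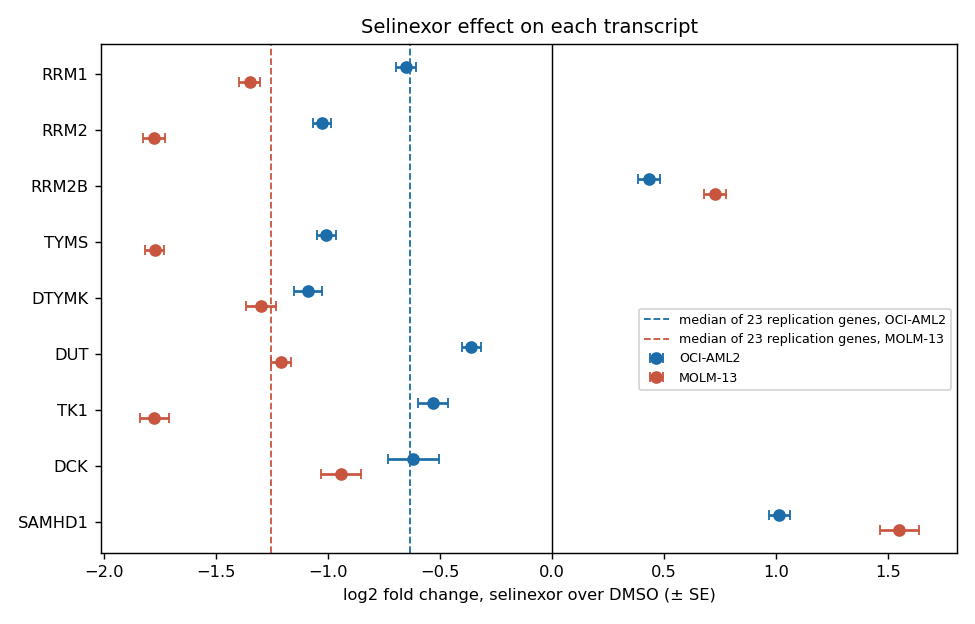
Log2 fold change of selinexor over DMSO (horizontal axis, ± SE, n = 3 libraries each) for the 9 transcripts, OCI-AML2 in blue and MOLM-13 in red. Dashed lines are the medians of 23 replication fork and origin genes, -0.63 in OCI-AML2 and -1.26 in MOLM-13. Each transcript has its MOLM-13 point farther from 0 than its OCI-AML2 point.

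The 2 lines were then compared by a test of the interaction between line and treatment, fitted to all 12 libraries. Selinexor was given at a different concentration to each line, so line and dose cannot be told apart. All 9 members passed this test, each with the larger change in MOLM-13, where 30.1% of the 12530 tested genes passed, 11.1% with an effect higher in MOLM-13 and 19.0% with an effect lower there. The split of these calls depended on the scaling, with 1388 higher and 2380 lower in the fit used here, and 1828 and 1890 with upper quartile scaling. It also moved when 1 library was left out, to 1542 lower without OCI-AML2 DMSO library 1, 1450 lower without MOLM-13 DMSO library 2 and 2084 higher without OCI-AML2 DMSO library 2.

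The difference in log2 fold change, MOLM-13 minus OCI-AML2, was greatest for TK1, at -1.29 ± 0.094 (adjusted p = 3.9e-19). It was -0.90 ± 0.065 for DUT (adjusted p = 9.2e-20), -0.81 ± 0.062 for TYMS (adjusted p = 1.3e-19), -0.80 ± 0.063 for RRM2 (adjusted p = 6.3e-19) and -0.75 ± 0.068 for RRM1 (adjusted p = 5.1e-16). TK1 and DUT, whose falls were among the mildest in OCI-AML2, were thus those with the widest gap between the lines. SAMHD1 differed by 0.49 ± 0.093 (adjusted p = 1.7e-05) and RRM2B by 0.24 ± 0.071 (adjusted p = 0.0052), both rising more in MOLM-13. Without OCI-AML2 DMSO library 2 the RRM2B difference was 0.38.

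The differences for DTYMK (-0.26 ± 0.092, adjusted p = 0.024) and DCK (-0.37 ± 0.13, adjusted p = 0.022) were weakly held. DTYMK lost its call in 11 of 17 alternatives and DCK in 9 of 17. For DTYMK the value was -0.12, -0.19 and -0.20 without OCI-AML2 DMSO library 1, 2 and 3, -0.21 and -0.25 without OCI-AML2 selinexor library 1 and 3, -0.14 without MOLM-13 DMSO library 2, and -0.23 and -0.24 without MOLM-13 selinexor library 1 and 2. For DCK it was -0.14 and -0.30 without OCI-AML2 DMSO library 2 and 3, -0.36 without OCI-AML2 selinexor library 1, -0.35 and -0.28 without MOLM-13 DMSO library 1 and 2, and -0.35 without MOLM-13 selinexor library 3. Their adjusted p-values reached 0.38 for DTYMK and 0.40 for DCK. In the authors' deposited table for MOLM-13, which gives DMSO over selinexor, the log2 fold changes were 1.79 for RRM2, 1.79 for TYMS, 1.79 for TK1, 0.957 for DCK, -0.713 for RRM2B and -1.53 for SAMHD1.

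To set the 9 transcripts against each other, CPM was divided by the length in kilobases of the longest principal transcript. With selinexor, DUT led in OCI-AML2 at 110.1 ± 5.62 CPM per kilobase (SD, n = 3) and TYMS followed with 91.9 to 97.5 over its 3 libraries, while RRM2, DTYMK, RRM1, TK1 and SAMHD1 lay between 49.4 ± 1.48 and 41.2 ± 0.766 with each overlapping its neighbour in that order. In MOLM-13, TYMS led at 59.5 ± 0.898 and DUT followed at 54.6 ± 0.425. RRM2B was the third there, at 31.7 ± 1.22 CPM per kilobase, not separated from DTYMK at 31.0 ± 1.84, and RRM2 was the seventh at 20.9 ± 0.336.

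With DMSO, TYMS led in both lines, at 192 ± 9.05 CPM per kilobase in OCI-AML2 and 203 ± 4.67 in MOLM-13 (SD, n = 3), followed by DUT at 141 ± 5.80 and 127 ± 9.46. DTYMK and RRM2 came next in OCI-AML2, at 102 ± 6.37 and 101 ± 0.538, and their libraries overlapped. RRM2B, DCK and SAMHD1 were the lowest in both lines, and in OCI-AML2 the order among these neighbours was within their spread. In MOLM-13 SAMHD1 stood at 3.91 ± 0.548 CPM per kilobase, below DCK at 15.5 ± 0.492. With the length of all annotated exons instead, TYMS still led except in OCI-AML2 with selinexor. There DUT and TYMS were nearly level, at 64.4 and 64.2 CPM per kilobase. The middle of each order changed, and in MOLM-13 with selinexor SAMHD1 moved below DCK.

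The 7 members that fell were set beside 23 genes of the replication fork and its origins, which use the deoxynucleotides. All 23 fell in both lines, by -1.06 to -0.23 in OCI-AML2 and by -1.83 to -0.71 in MOLM-13 (medians -0.63 and -1.26). The helicase subunit MCM4 changed by -0.73 ± 0.039 and -1.39 ± 0.035, and MCM5 by -0.36 ± 0.041 and -1.36 ± 0.042. In MOLM-13 all 7 members lay inside the range of these genes. In OCI-AML2 6 of them did, and DTYMK lay just below it. Over all tested genes, 31.8% were called lower in each line. Those called higher were 31.3% in OCI-AML2 and 31.8% in MOLM-13. RRM2B belongs by background knowledge to the p53 targets. Of 18 p53 target genes, 15 rose in OCI-AML2 and 16 in MOLM-13, with medians of 0.71 and 1.17. PMAIP1 and AEN fell in both lines. PMAIP1, which encodes the BH3 protein NOXA, and the exonuclease AEN are named because few fell. Without MOLM-13 DMSO library 3 or without MOLM-13 selinexor library 2, 1 p53 target fell in MOLM-13 instead of 2. CDKN1A, the p21 inhibitor of cyclin-dependent kinases, changed by 1.49 ± 0.058 and 1.53 ± 0.040. MDM2, the ubiquitin ligase of p53, changed by 0.71 ± 0.048 and 1.98 ± 0.039. In each line the change of RRM2B was smaller than the median of the p53 target list. What part p53 has in the RRM2B change was not tested.

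**Figure D4:**
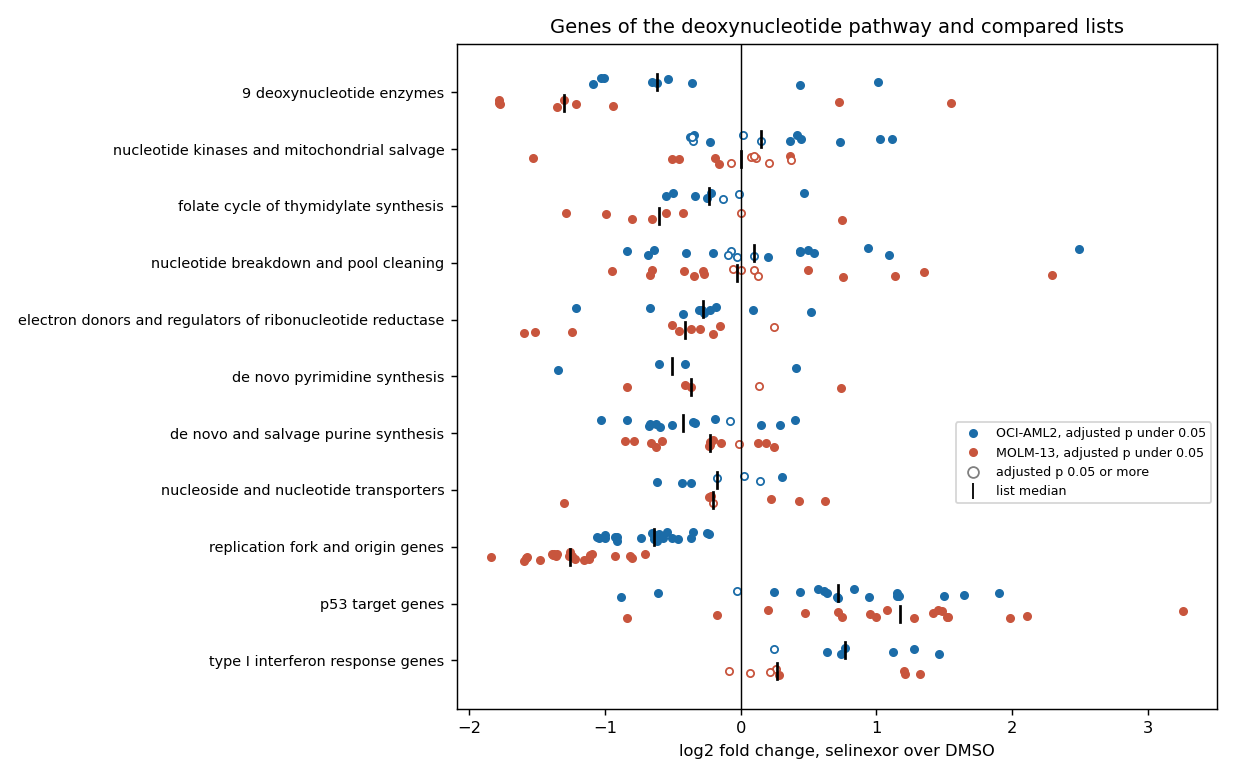
Log2 fold change of selinexor over DMSO (horizontal axis) of each tested gene in the 9 deoxynucleotide enzymes and 10 other lists, OCI-AML2 in blue above MOLM-13 in red. Filled points passed edgeR's test, open points did not, and black ticks are list medians. All replication genes lie left of 0, most p53 targets lie right of it, and the other nucleotide lists straddle it.

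The regulators and electron donors of ribonucleotide reductase mostly fell, 8 of 10 in OCI-AML2 and 9 of 10 in MOLM-13. Over all tested genes, 31.8% were called lower in each line. The list medians were -0.28 in OCI-AML2 and -0.41 in MOLM-13, milder than the changes of CCNF and CHEK1. CCNF, the cyclin F that targets RRM2 for degradation, changed by -1.21 ± 0.065 and -1.59 ± 0.075. CHEK1, the checkpoint kinase, changed by -0.66 ± 0.069 and -1.52 ± 0.083. E2F1, an activator of S phase genes including RRM2, changed by -1.24 ± 0.084 in MOLM-13 and by -0.18 ± 0.066 in OCI-AML2. The OCI-AML2 call of E2F1 (adjusted p = 0.017) was lost at -0.16 without selinexor library 1 (adjusted p = 0.067) and at -0.16 without selinexor library 2 (adjusted p = 0.065), and over 12 alternatives its adjusted p reached 0.097. TXNRD1, the thioredoxin reductase that supplies electrons, changed by -0.43 ± 0.042 and -0.30 ± 0.038. The 2 that rose in OCI-AML2 were the electron carriers GLRX and TXN, and with any 1 of the 6 libraries left out 1 list member rose instead of 2. In MOLM-13 TXN fell by 0.15 on the log2 scale and GLRX stood at 0.25 (adjusted p = 0.084), with a call for 1 list member that rose when MOLM-13 selinexor library 2 was left out.

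The folate cycle feeds TYMS its methylene group. Of its 8 genes, 5 fell in OCI-AML2 and 6 in MOLM-13, and 1 rose in each. Over all tested genes, 31.8% were called lower in each line. Those called higher were 31.3% in OCI-AML2 and 31.8% in MOLM-13. MTHFD1, which interconverts one-carbon folates, changed by -0.55 ± 0.044 and -0.80 ± 0.042. The median of the list was -0.24 in OCI-AML2 and -0.60 in MOLM-13. GGH, SHMT1 and SHMT2 also fell in both lines, and SLC19A1 fell in MOLM-13.

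Other nucleotide kinases and mitochondrial salvage genes did not move as a group. In OCI-AML2 6 of 13 rose and 3 fell (CMPK1, DCTD and NME6), and in MOLM-13 1 of 12 (GUK1) rose and 5 fell, CMPK2, DCTD, NME1 and DGUOK among them. When MOLM-13 DMSO library 3 was left out, 2 rose there. Of all tested genes, 31.3% were called higher and 31.8% lower in OCI-AML2, and 31.8% in each direction in MOLM-13. Guanylate kinase GUK1 rose by 0.44 ± 0.049 and 0.36 ± 0.051, and the dCMP deaminase DCTD, which makes the dUMP used by TYMS, changed by -0.34 ± 0.056 and -0.51 ± 0.061. CDA, the cytidine deaminase that also inactivates cytarabine, had 67.4, 64.8 and 66.4 CPM with selinexor and 31.5, 30.4 and 29.7 CPM with DMSO in OCI-AML2, a change of 1.12 ± 0.071. In MOLM-13 it had 1 count in each selinexor library and 0, 0 and 5 counts in the DMSO libraries, which is too little to test.

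Genes that break nucleotides down or clean the pool were called both ways. In OCI-AML2 8 of 17 were higher and 5 lower, where 31.3% and 31.8% of all tested genes were. In MOLM-13 5 of 16 were higher and 7 lower, where 31.8% of all tested genes were called in each direction. Calls in both directions are thus common over all genes. TYMP, the thymidine phosphorylase that splits thymidine before TK1 can use it, had 118, 121 and 123 CPM with selinexor and 22.1, 20.2 and 22.2 CPM with DMSO in OCI-AML2. MOLM-13 had 36.2, 37.4 and 33.1 CPM of it with selinexor and 6.44, 7.77 and 7.54 CPM with DMSO. Its changes of 2.49 ± 0.069 and 2.29 ± 0.12 were the largest in this list in both lines. DCTPP1, which hydrolyses dCTP and modified deoxycytidine triphosphates, changed by -0.64 ± 0.052 and -0.67 ± 0.051. DNPH1, which hydrolyses hydroxymethyl-dUMP, had 257, 239 and 244 CPM with selinexor and 169, 166 and 173 CPM with DMSO in OCI-AML2, and in MOLM-13 77.4, 76.5 and 75.9 CPM against 93.3, 91.4 and 92.6 CPM. DNPH1 changed by 0.54 and -0.27, opposite directions whose difference of -0.86 ± 0.070 passed the interaction test (adjusted p = 2.5e-18). NUDT5, NT5C and PNP also fell in both lines, and NUDT1 fell in MOLM-13. In MOLM-13 the others that rose were NUDT18, NUDT16, ADA and NT5C3B.

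The genes whose pattern over the 12 libraries was nearest to 3 members were found by Euclidean distance of log2 CPM from the DMSO mean of the line, among 9463 genes with at least 5 CPM in each line. For RRM2 the nearest was TYMS, at a distance of 0.139. PRC1-AS1, the cohesin acetyltransferase ESCO2, the replicative helicase subunit CDC45 and the spindle kinesin KIFC1 followed, at 0.197 to 0.281. Between RRM2 and RRM1 the distance was 0.994. For RRM2B the nearest were the aminopeptidase ERAP1, ZMYM4, ZFAND1, DRAM2 and the glutaminyl-tRNA synthetase QARS, at 0.148 to 0.192. For SAMHD1 they were COL23A1, the NAD-consuming surface enzyme CD38, TIFAB and the p53 targets ZMAT3 and PHLDA3, at 0.254 to 0.430. ZMAT3 changed by 1.15 ± 0.089 and 1.52 ± 0.075 and PHLDA3 by 1.17 ± 0.068 and 1.45 ± 0.073 in OCI-AML2 and MOLM-13. SAMHD1 and RRM2B, both of which rose, were 1.76 apart.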

How the data were processed

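Per the labels' protocols, the 12 libraries were poly(A)-selected, paired-end and not strand-specific. The submitters' processing notes name STAR, hg38, R 3.6.1 and DESeq2. Which tool and annotation made the counts is not given in the sources used here. For each line the authors deposited whole-number counts per gene symbol, and for MOLM-13 also a table of log2 fold changes of DMSO over selinexor. The deposited normalized values were not used. Columns give the treatment but no replicate number, so the library numbers are column positions used as names, and the line comes from the table's initial.

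From the deposited counts, edgeR 4.0.16 in R 4.3.3 was used with scaling by TMM, a filter on low counts (filterByExpr, at least 10 counts in enough libraries and 15 in total) and robust quasi-likelihood F tests per line, and with an interaction term over 12 libraries for the genes in both tables. P-values were adjusted over all tested genes by the Benjamini-Hochberg method, threshold 0.05. The procedure was tested on simulated counts. Ratios between transcripts used two-sided exact permutation tests. Alternatives were DESeq2 size factors, upper quartile scaling, no filter, DESeq2 1.42.0, limma 3.58.1 (voom), a joint fit, and each library left out. Lengths and positions come from GENCODE 29 (GRCh38), and promoter sequences from RefSeq (GRCh38.p14), where 8 of the 9 symbols matched. A length of all annotated exons was tried after seeing the data. A count of 3 in a library corresponded to 0.255 to 0.370 CPM, counting error only.

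The members and lists were chosen with earlier results of these data known. The text names the 9 members, ENOSF1 and TYMSOS, up to 4 genes of each list with the smallest p in either line, and the 5 nearest patterns of 3 members. Genes named to spell out a count of 5 or fewer, and the overlapping genes MOB1B and TLDC2, were chosen after their values were seen. For a few genes of these lists, no result is reported here.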

Additional observations from a re-analysis of the deposited data

Results flagged for a closer look

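Each result here is a difference between the lines, the log2 change with selinexor over DMSO in MOLM-13 minus that in OCI-AML2, which passed edgeR's interaction test over 12 libraries at an adjusted p under 0.05. Line and dose cannot be told apart in any of them.

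Among the enzymes, TK1 differed by -1.29, DUT by -0.90, TYMS by -0.81, RRM2 by -0.80, RRM1 by -0.75, DCK by -0.37 and DTYMK by -0.26, all falling more in MOLM-13. SAMHD1 (0.49) and RRM2B (0.24) rose more there. The neighbours of TYMS differed by -0.47 (ENOSF1) and -0.67 (TYMSOS).

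Among genes of nucleotide metabolism, SLC29A1 differed by -0.92, DCTD by -0.21 and MTHFD1 by -0.30, each falling more in MOLM-13. DNPH1 (-0.86) rose in OCI-AML2 and fell in MOLM-13. CTPS1 (0.46) fell less in MOLM-13, and CAD (0.28) rose more there. The DCTD call was lost in 12 of its 17 alternatives.

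Among cell cycle and regulator genes, E2F1 differed by -1.11, MCM5 by -1.04, CHEK1 by -0.90, MCM4 by -0.71 and CCNF by -0.43. The p53 targets MDM2 and ZMAT3 differed by 1.23 and 0.32. The myeloid markers MPO, LYZ and CEBPA differed by 1.61, 0.53 and 0.32, and MPO fell in OCI-AML2 and rose in MOLM-13.

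Among genes with the nearest patterns, those near RRM2 differed by -0.89 (CDC45), -0.77 (ESCO2), -0.77 (PRC1-AS1) and -0.69 (KIFC1). Those near RRM2B differed by 0.33 (ZFAND1), 0.28 (DRAM2), 0.25 (ERAP1), 0.23 (ZMYM4) and 0.22 (QARS). Those near SAMHD1 differed by 0.61 (COL23A1) and 0.46 (CD38). These genes were chosen for the likeness of their changes, so their differences follow those of the enzyme they were matched to.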

How the results depend on the processing

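All 9 enzymes kept their direction and their call within each line under every alternative run: the other scalings, no filter, DESeq2, limma voom, the joint fit and each library left out. Of 369 recomputed enzyme values, 20 lost a call, all of them differences between the lines for DTYMK (11) or DCK (9). Of 1465 values of other named genes, 26 lost a call and 0 reversed. DCTD, in the difference between the lines, made up 12 of these lost calls, and E2F1 in OCI-AML2 made up 5. The remainder belonged to other named genes, which are not listed here. Counts of genes called within a line stayed within 1.5 times. For the difference between the lines, leaving out 1 library gave 1228 to 2084 genes higher and 1450 to 2236 lower, against 1388 and 2380 with all libraries. Of the ratios, leaving out 1 library gave log2 TK1/TYMS in MOLM-13 from -0.081 to 0.059, with 0.014 without DMSO library 2 and 0.059 without selinexor library 3, against -0.0076 with all libraries, and log2 DCK/TK1 in OCI-AML2 from -0.30 to 0.10, with 0.10 without DMSO library 1, against -0.083. With the length of all annotated exons, the RRM2B share of small-subunit transcripts moved to 48.2% with selinexor and 25.3% with DMSO in OCI-AML2, and to 67.6% and 26.9% in MOLM-13. No paired analysis was possible because the columns carry no replicate numbers. The difference between the lines cannot be told apart from the difference in dose, and the submitters' word that the replicates are independent could not be checked in the files.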

Other observations

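The pathways that supply the ribonucleotide precursors moved unevenly. Of 14 purine synthesis and salvage genes, 10 fell and 3 rose in each line, and the medians were -0.43 (OCI-AML2) and -0.22 (MOLM-13). Over all tested genes, 31.8% were called lower in each line, and 31.3% (OCI-AML2) and 31.8% (MOLM-13) higher. The 3 that rose were IMPDH1, IMPDH2 and APRT in both. PRPS1, which makes phosphoribosyl pyrophosphate, changed by -1.03 ± 0.067 in OCI-AML2 and -0.85 ± 0.063 in MOLM-13, and HPRT1, the hypoxanthine salvage enzyme, by -0.83 ± 0.071 and -0.78 ± 0.070.

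Of the pyrimidine genes, CTPS1, DHODH and UMPS fell and CAD rose in both lines. CTPS1, which makes CTP from UTP, had 62.9, 63.6 and 61.4 CPM with selinexor and 157, 154 and 166 CPM with DMSO in OCI-AML2, and in MOLM-13 72.0, 64.2 and 67.2 CPM against 118, 124 and 121 CPM. It changed by -1.34 ± 0.054 and -0.84 ± 0.057, and CAD, which starts the pathway, by 0.41 ± 0.052 and 0.74 ± 0.042. SLC29A1, the equilibrative transporter that imports nucleosides and cytarabine, had 191, 186 and 183 CPM with selinexor and 252, 256 and 248 CPM with DMSO in OCI-AML2. In MOLM-13 it had 59.4, 58.7 and 57.9 CPM with selinexor and 139, 151 and 144 CPM with DMSO. Its changes were -0.43 ± 0.042 and -1.30 ± 0.056. SLC25A36, a mitochondrial pyrimidine nucleotide carrier, rose by 0.30 ± 0.079 and 0.62 ± 0.072. Of the 7 transporters, 3 fell and 1 rose in OCI-AML2, and 3 fell and 3 rose in MOLM-13. Over all tested genes, 31.8% were called lower and 31.3% higher in OCI-AML2, and 31.8% each way in MOLM-13. SLC25A33 also fell in both lines, and ABCC4 and SLC29A2 also rose in MOLM-13.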
